A study of Homo sapiens with 6 samples.

Results

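The 10 hypoxia-inducible genes were followed in the HCT116 transcriptome, namely HIF1A, CA9, VEGFA, ADM, NDRG1, BNIP3, ANKRD37, EGLN3, PFKFB4 and KDM3A. They were taken by gene symbol as 10 of the 62710 genes listed in the count table. HCT116 is an established human colon cancer cell line. The 6 RNA-seq libraries came from HCT116 cells carrying a lentiviral short hairpin RNA against IGF2BP3, an RNA-binding reader of N6-methyladenosine (sh-IGF2BP3, 3 libraries), or a scrambled hairpin (sh-NC, 3 libraries). Per the study's methods both lines were selected with puromycin, so lentiviral transduction and drug selection were shared by both groups, and the knockdown group rests on stably transduced cells of a single line. No low-oxygen treatment is named in the labels or methods. The values below are therefore levels in cells under routine culture, and the question asked of them was whether these genes differed between knockdown and control.

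Cells answer a lack of oxygen mainly through the hypoxia-inducible factors, dimers of an alpha subunit such as HIF-1α and the partner ARNT. When oxygen is plentiful, prolyl hydroxylases mark the alpha subunit for destruction by the VHL ubiquitin ligase. When oxygen is scarce the subunit is stable, binds a short DNA element around the letters ACGTG or GCGTG, and raises genes for glycolysis, vessel growth, acid handling and mitochondrial turnover. The regulation acts mostly on the protein, so HIF1A mRNA and HIF-1α activity are separate quantities and only the former was measured here.

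In outline, HIF1A mRNA was abundant and the other 9 genes were moderate to low. By the edgeR quasi-likelihood test of sh-IGF2BP3 against sh-NC, none of the 9 members tested passed the thresholds of the study. These were 1.5-fold at an adjusted p below 0.05, which 0 of all 16753 genes tested passed. KDM3A, a histone demethylase, was lower in every knockdown library than in every control library, as were 11% of all genes tested. Its knockdown mean was 0.621 times the control mean. The log2 fold change of KDM3A went from -0.69 to -0.34 once trends with GC content and gene length were removed. ADM, the adrenomedullin precursor, had a knockdown mean 1.84 times that of the control, but its groups overlapped. The remaining tested members had log2 fold changes between -0.22 and 0.15.

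The libraries held 16146718 to 23576469 counts. Epithelial and colon identity was present, with 7 of 9 markers at a mean FPKM of at least 1, where FPKM is the deposited fragments per kilobase of gene scaled to sequencing depth. CDX1 and VIL1 were near 0. The summed FPKM of these 9 genes was 512.9 to 829.9 in sh-NC and 698.3 to 926.2 in sh-IGF2BP3. One of 5 fibroblast markers (COL1A1), and 0 of 5 endothelial and 0 of 5 leukocyte markers, reached that level. IGF2BP3 itself was measured at 90.3, 84.1 and 70.3 CPM (counts per 1000000, on library sizes scaled by the trimmed mean of M-values) in sh-NC and at 60.2, 52.3 and 55.8 CPM in sh-IGF2BP3. Every knockdown library was below every control library (two-sided exact permutation test, p = 0.1, which is the floor for 3 against 3), and the knockdown mean was 0.687 times the control. The log2 fold change of IGF2BP3 was -0.54 (SE 0.181, adjusted p = 0.126 by the edgeR quasi-likelihood test with Benjamini-Hochberg adjustment), and the groups overlapped once trends with GC content and gene length were removed (-0.22). Apart from these libraries, the study reports the knockdown in HCT116 by qPCR and by Western blot. The labels do not say that the 3 libraries of a group came from separate cultures, so the p-values measure only the spread between these libraries, and in bulk RNA fewer expressing cells cannot be told apart from less RNA per cell.

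The letters of the HIF element were looked for in the members' promoters. RefSeq promoter records (GRCh38.p14, 250 bases before to 50 after the transcription start) were at hand for 8 of the 10 members. Of these, 7 held ACGTG or GCGTG on either strand, the exception being EGLN3. Over all 35116 promoter records, 21.4% held ACGTG, 36.5% held GCGTG and 48.4% held at least one of them, so the letters alone are common. The stretches that hold these letters are shown because binding at such letters is how HIF acts on its targets. Each is written 5′ to 3′ on the gene's own strand with the motif, or its reverse complement CACGT or CACGC, in capitals and 12 bases on each side. Overlapping matches on both strands, as in CACGTG, were counted once per strand.
HIF1A, chr14:61695297-61695325, plus strand: tggctgagagcgGCGTGggctggggtggg
CA9, chr9:35673898-35673926, plus strand: tcgtttccaatgCACGTacagcccgtaca
ADM, chr11:10304960-10304988, plus strand: gagcaggagcgcGCGTGgctgaggaaaga
BNIP3, chr10:131982011-131982078, minus strand: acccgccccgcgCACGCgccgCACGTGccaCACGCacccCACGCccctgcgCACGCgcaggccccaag
ANKRD37, chr4:185396667-185396714, plus strand: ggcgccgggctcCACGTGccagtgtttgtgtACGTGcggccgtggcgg
PFKFB4, chr3:48556953-48556981, minus strand: tgagttgggcatGCGTGgtcggaggccgg
KDM3A, chr2:86441333-86441361, plus strand: ccgggaggctgtGCGTGtcttgtgagagc

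BNIP3 held the densest group, with 6 matches between 143 and 100 bases before its start. ANKRD37 held 3 matches between 162 and 139 bases before its start. In CA9, which encodes the surface carbonic anhydrase IX, the single match lay 18 to 14 bases before the start and on the opposite strand. HIF1A had a match in 1 of its 2 promoter records, 204 to 200 bases before the start. KDM3A, the member with the clearest difference between groups, had 1 match, which both of its records contain. The starts meant here are those of the promoter records. The stretches of ANKRD37, PFKFB4 and KDM3A lie inside the gene coordinates given below. A match is a description of the letters and not of binding.

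Compared per length, the 10 genes spanned from 63.6 to 0.23 FPKM as means over the 6 libraries. HIF1A stood first at 63.6 ± 8.49 FPKM (SD, n = 6), above 97.4% of the tested genes. ADM (7.07 ± 2.88), VEGFA (6.2 ± 0.768), BNIP3 (5.83 ± 0.631), NDRG1 (5.81 ± 1.63), PFKFB4 (4.64 ± 0.405) and KDM3A (3.77 ± 1.33) followed as mean FPKM, and each neighbour in that order overlapped the next over the 6 libraries. ANKRD37 (0.792 ± 0.217 FPKM), EGLN3 (0.644 ± 0.207 FPKM) and CA9 (0.23 ± 0.197 FPKM) were lowest. Ranges did not overlap at 2 steps of this order, from HIF1A to ADM and from KDM3A to ANKRD37. EGLN3 exceeded CA9 in 6 of 6 libraries although their ranges overlapped. The order rests on the gene lengths behind the FPKM, such as 14431 bases for VEGFA and 2325 for ADM.

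**Figure D1:**
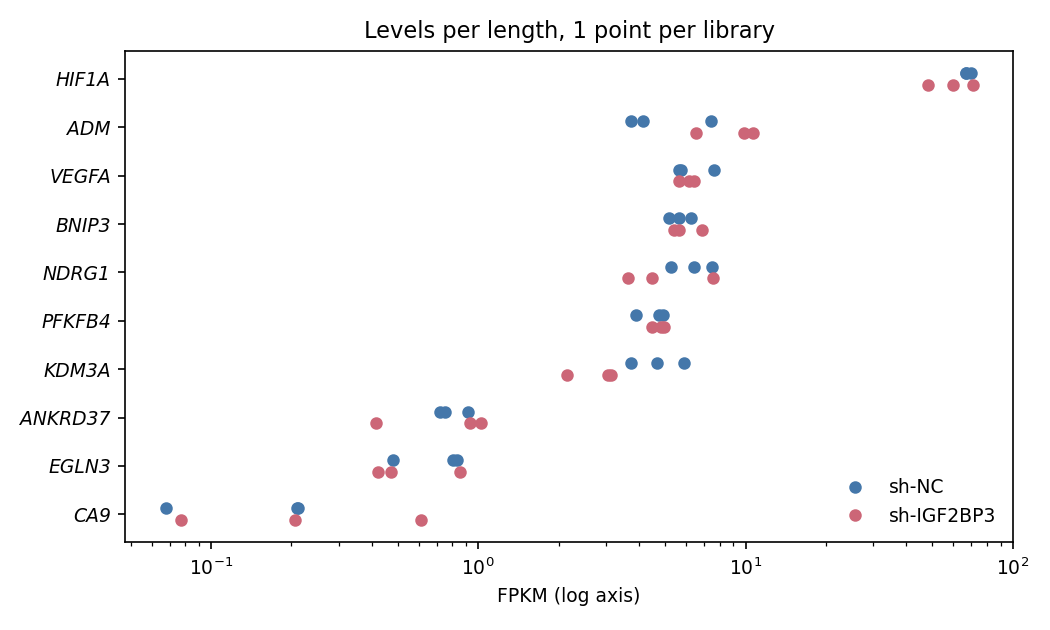
Level of the 10 genes per length (FPKM, log axis), with 1 point per library and the groups in separate colours, ordered by the mean over the 6 libraries. HIF1A stands apart at the top (48.1 to 70.7 FPKM) and CA9 is lowest (0.0677 to 0.609 FPKM).

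HIF1A encodes the oxygen-regulated alpha subunit itself (ENSG00000100644, GRCh38 chromosome 14, 61695513 to 61748259, plus strand). Control libraries gave 373.4, 336.1 and 314.0 CPM, set against 247.6, 324.7 and 376.6 CPM in sh-IGF2BP3. The lowest and the highest value of all 6 libraries were both knockdown libraries, so the groups overlapped fully. The means were 341.1 ± 30.0 and 316.3 ± 64.9 CPM (SD, n = 3 each). The log2 fold change was -0.11 (SE 0.2, adjusted p = 0.772 by the edgeR quasi-likelihood test with Benjamini-Hochberg adjustment), and its sign turned to 0.19 once GC and length trends were removed. The antisense gene HIF1A-AS3 covers 77.7% of the gene, but it held only 27 to 45 counts per library against 4331 to 8135 for HIF1A.

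EGLN3 encodes PHD3, a prolyl hydroxylase that is itself a HIF target and so part of the feedback on the alpha subunit (chromosome 14, 33924227 to 34462774, minus strand). Control libraries gave 3.67, 5.78 and 5.62 CPM, set against 6.29, 3.27 and 3.58 CPM in sh-IGF2BP3. The 3 high and the 3 low libraries cut across the groups, with sh-IGF2BP3 1 beside sh-NC 2 and sh-NC 3. The log2 fold change was -0.20 (SE 0.334, adjusted p = 0.752, edgeR). SPTSSA, a coding gene on the same strand over 5.47% of EGLN3, held 382 to 566 counts per library against 50 to 140 for EGLN3. How reads fitting both were counted is not given in the sources used here.

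KDM3A encodes a demethylase of histone H3 lysine 9 that depends on oxygen for its catalysis (ENSG00000115548, chromosome 2, 86440647 to 86492716, plus strand). It was measured at 51.6, 60.3 and 71.5 CPM in sh-NC and at 41.6, 30.0 and 42.2 CPM in sh-IGF2BP3. The highest knockdown library (42.2 CPM) stayed under the lowest control library (51.6 CPM; exact permutation p = 0.1). The means were 61.1 ± 10 and 37.9 ± 6.87 CPM (SD, n = 3 each). This was a log2 fold change of -0.69 (SE 0.203, unadjusted p = 0.00387, adjusted p = 0.112 by the edgeR quasi-likelihood test). DESeq2 gave -0.67 with an adjusted p of 0.0482, or 0.0531 when genes needed 10 counts over the 6 libraries, so its side of the threshold turned on that filter. Removal of GC and length trends brought the log2 fold change to -0.34 (SE 0.16, adjusted p = 0.49 by edgeR) and the groups still did not overlap. There were 25 alternative settings, among them the same fit with no threshold on fold change. Over these the log2 fold change ran from -0.79 to -0.21 and the adjusted p (edgeR, DESeq2 or limma) from 0.0152, without sh-NC 1, to 0.997. No gene of the count table's annotation overlaps KDM3A.

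**Figure D2:**
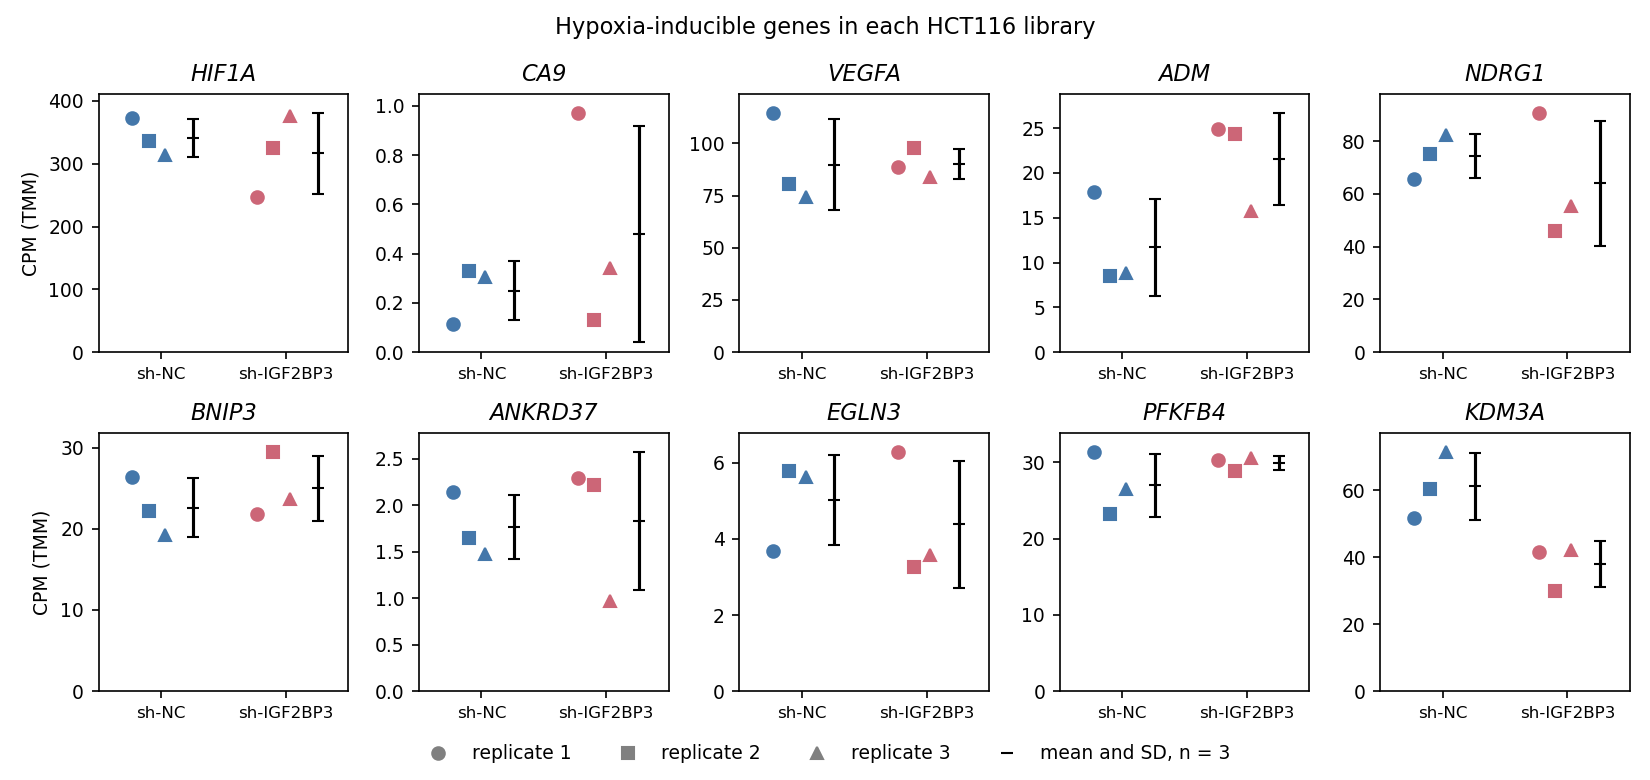
Level of each of the 10 genes in CPM, from 0 and with a separate scale per gene; points are libraries, short ticks are group means and whiskers are the SD of 3 libraries. Of the 10, only KDM3A shows every knockdown library below every control library (30.0 to 42.2 against 51.6 to 71.5 CPM), as do 11% of all genes tested.

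ADM and VEGFA encode secreted factors that act on vessels. ADM, which encodes adrenomedullin (ENSG00000148926, chromosome 11, 10305073 to 10307397, plus strand), was measured at 17.9, 8.47 and 8.79 CPM in sh-NC and at 24.9, 24.3 and 15.7 CPM in sh-IGF2BP3. sh-NC 1 lay above sh-IGF2BP3 3, and without that one control the groups would be apart. The means were 11.7 ± 5.38 and 21.6 ± 5.13 CPM (SD, n = 3 each), and the log2 fold change was 0.89 (SE 0.3, unadjusted p = 0.00938, adjusted p = 0.127, edgeR). DESeq2 gave 0.89 with an adjusted p of 0.0635. Without sh-NC 1 the log2 fold change of ADM was 1.33 (adjusted p = 0.00364, edgeR), and with GC and length trends removed it was 0.50 (adjusted p = 0.511, edgeR). Over all fits the adjusted p of ADM (edgeR, DESeq2 or limma) ran from 0.00364 to 0.997 and the log2 fold change from 0.35 to 1.33, never changing sign.

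VEGFA, the vascular endothelial growth factor (chromosome 6, 43770184 to 43786487, plus strand), was measured at 114.7, 80.5 and 74.2 CPM in sh-NC and at 88.7, 98.0 and 84.0 CPM in sh-IGF2BP3. All 3 knockdown libraries lay inside the control range. The means were 89.8 ± 21.8 and 90.2 ± 7.11 CPM, and the log2 fold change was 0.0071 (SE 0.199, adjusted p = 0.985, edgeR) and -0.031 with GC and length trends removed, so that no direction can be given.

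CA9, the acid-handling carbonic anhydrase of the cell surface, is often used as a tissue marker of hypoxia (chromosome 9, 35673928 to 35681159, plus strand). It was nearly silent, with 2, 8 and 6 counts in sh-NC and 17, 2 and 6 counts in sh-IGF2BP3. It did not pass the edgeR filter on low counts and was not in that test. Summed counts were 16 in sh-NC (exact Poisson 95% interval 9.15 to 26.0) and 25 in sh-IGF2BP3 (16.2 to 36.9). These intervals cover counting error only, and 17 of the 25 knockdown counts came from 1 library. The exact permutation p was 0.4. ARHGEF39, which overlaps 26.8% of CA9 on the opposite strand, held 354 to 586 counts per library, so reads of its strand cannot be set apart if the counting was not strand-aware.

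PFKFB4 and BNIP3 act on fuel use and mitochondria. PFKFB4, a bifunctional kinase and phosphatase that sets the glycolytic activator fructose 2,6-bisphosphate (chromosome 3, 48517684 to 48562015, minus strand), was the steadiest of the 10, at 31.4, 23.2 and 26.5 CPM in sh-NC and 30.3, 28.8 and 30.6 CPM in sh-IGF2BP3. Its highest library was only 1.35 times its lowest. The log2 fold change was 0.15 (SE 0.198, adjusted p = 0.691, edgeR), turning to -0.06 with GC and length trends removed. BNIP3, a receptor for mitophagy (chromosome 10, 131967684 to 131981967, minus strand), was measured at 26.4, 22.2 and 19.2 CPM in sh-NC and at 21.8, 29.5 and 23.7 CPM in sh-IGF2BP3, with overlapping groups and a log2 fold change of 0.15 (SE 0.216, adjusted p = 0.713, edgeR). Its pseudogenes, 39 by symbol, held 16 to 39 counts in all per library beside 375 to 538 for BNIP3, and how the counting shared reads among them is not given in the sources used here.

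NDRG1 and ANKRD37 complete the set. NDRG1 encodes a cytoplasmic protein linked to stress and differentiation (chromosome 8, 133237175 to 133302022, minus strand) and was measured at 65.6, 75.3 and 82.4 CPM in sh-NC and 90.8, 46.0 and 55.3 CPM in sh-IGF2BP3. Both the highest and the lowest library were knockdown libraries. The log2 fold change was -0.22 (SE 0.232, adjusted p = 0.602, edgeR). ANKRD37, an ankyrin-repeat protein (chromosome 4, 185396021 to 185400628, plus strand), was measured at 2.14, 1.65 and 1.48 CPM in sh-NC and 2.29, 2.22 and 0.965 CPM in sh-IGF2BP3. Here again the knockdown libraries held both extremes, and the log2 fold change was 0.053 (SE 0.411, adjusted p = 0.95, edgeR). UFSP2, on the opposite strand over 23.7% of ANKRD37, held 254 to 541 counts against 17 to 40 for ANKRD37.

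**Figure D3:**
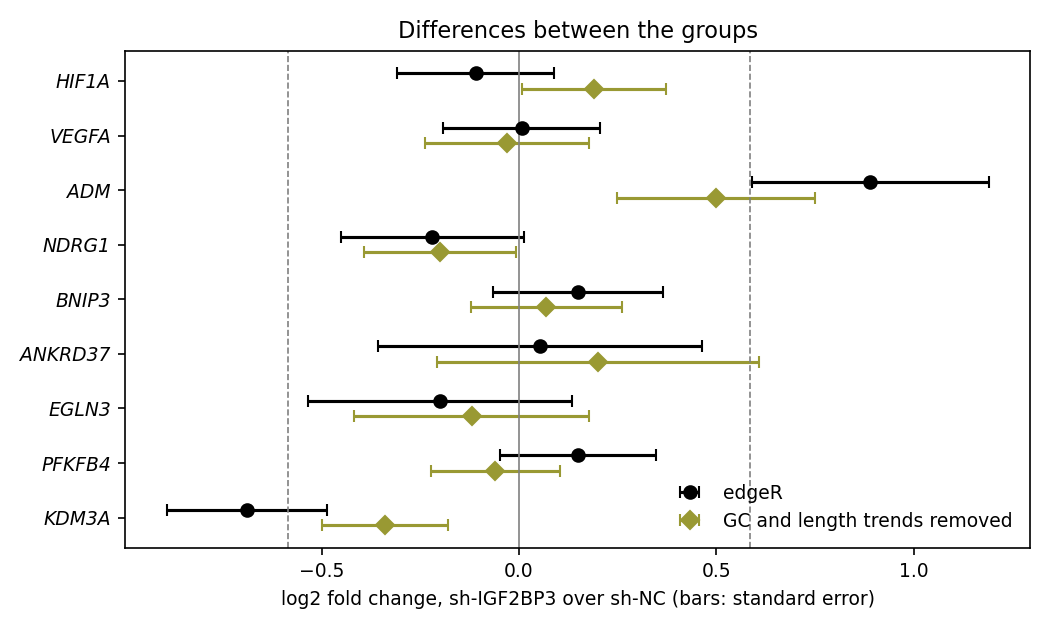
Log2 fold change, sh-IGF2BP3 over sh-NC, of the 9 tested members, from the fit on counts and from the fit with GC and length trends removed; whiskers are 1 SE and dashed lines mark a fold change of 1.5. KDM3A moves from -0.69 to -0.34 and ADM from 0.89 to 0.50, while HIF1A moves from -0.11 to 0.19.

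The members' counts were read against those of all genes tested. In the edgeR fit 0 of 9 members passed the thresholds, as did 0 of 16753 genes (0%). At an unadjusted p under 0.05, 1 member was higher (ADM) and 1 was lower (KDM3A), where 13.6% of all genes were higher and 8.54% lower by the same rule. No member had all knockdown libraries above the controls, against 13.2% of genes, and 1 member had them below, against 11%. DESeq2 called 0 of 8 members higher and 1 lower, where it called 4.29% of genes higher and 1.05% lower. Without sh-NC 1, edgeR called ADM higher and KDM3A lower, where it called 10% of genes higher and 5.67% lower. The edgeR median log2 fold change was 0.0071 over the 9 members (5 higher and 4 lower) and -0.014 over all genes.

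Over 16236 tested genes whose GC content could be read, the log2 fold change was correlated with GC (Spearman rho 0.611), a description over genes, which are not independent replicates. Among the members, HIF1A (36.4% GC) and KDM3A (42.5%) had negative and ADM (58.5%) positive values, and these 3 moved most towards or past 0 once GC and length trends were removed. ANKRD37 (42.1% GC) did otherwise, at 0.053 before and 0.20 after, further from 0. The share of the differences that base composition carries was not tested.

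The members also varied between libraries of the same group, KDM3A among them although its groups did not overlap. sh-IGF2BP3 1 held the highest value of 5 members (CA9, ADM, NDRG1, ANKRD37 and EGLN3) and the lowest of HIF1A. sh-IGF2BP3 2 held the lowest of NDRG1, EGLN3 and KDM3A. NDRG1 and EGLN3 had a like profile, high in sh-IGF2BP3 1, sh-NC 2 and sh-NC 3 and low in sh-IGF2BP3 2 and 3. As a log2 deviation from each gene's own mean, the median over the 9 members ran from -0.10 in sh-NC 3 to 0.16 in sh-NC 1. Over all 6 libraries, the highest value was 2.94 times the lowest for ADM, 2.38 times for KDM3A and 2.37 times for ANKRD37, against 1.52 times for HIF1A. For CA9, on 2 to 17 counts, it was 8.61 times. The highest and the lowest library of CA9, ADM and KDM3A lay in different groups, so these ratios are not spreads within a group.

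**Figure D4:**
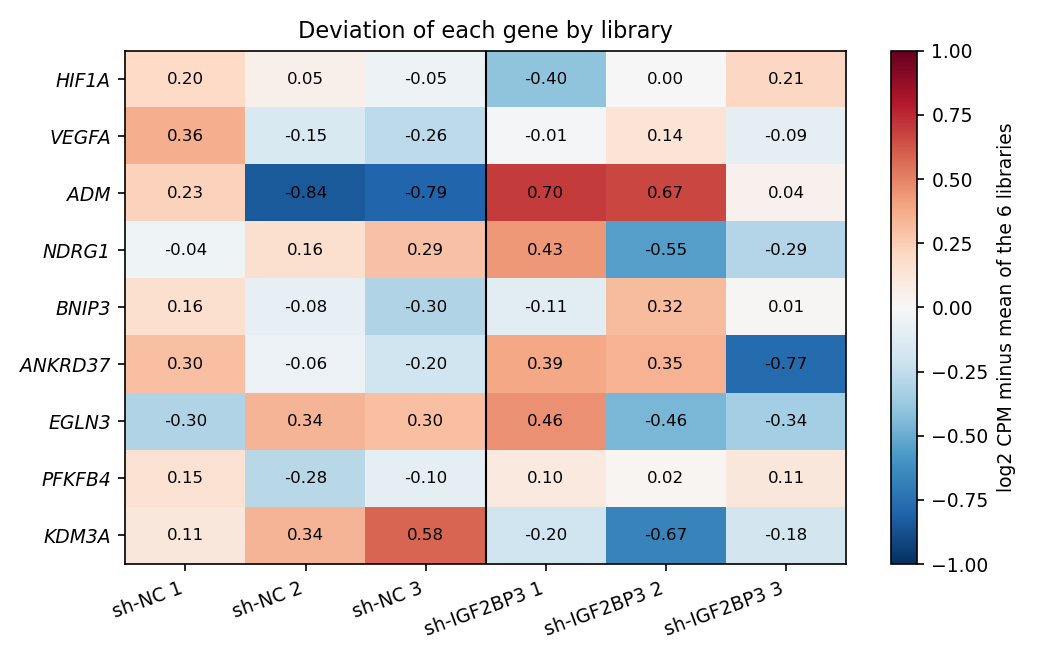
Log2 deviation of each tested member from its own mean over the 6 libraries. ADM runs from 0.23 in sh-NC 1 to -0.84 and -0.79 in sh-NC 2 and 3, which lie close to each other in most members, and NDRG1 runs from 0.43 to -0.55 within sh-IGF2BP3.

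For HIF1A, VEGFA and BNIP3 the tested gene with the nearest profile was found as the smallest root-mean-square difference of centred log2 CPM over the 6 libraries. It was GTF2H1 for HIF1A (0.0213, where HIF1A's own root-mean-square deviation was 0.202), PLAUR for VEGFA (0.0632 against 0.204) and NUDT9 for BNIP3 (0.0472 against 0.199). Each is the smallest value of a search over all tested genes of at least 1 CPM. So wide a search on 6 values can give a close match without a link, and no link was tested.

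The other genes of the pathway gave a setting for these values. Of 13 HIF subunits and regulators, which include the members HIF1A and EGLN3, all were tested and 0 passed the thresholds by edgeR. Of all 16753 genes, 0 passed as well. The median log2 fold change of the 13 was 0.023. EGLN1, the main oxygen-sensing prolyl hydroxylase, had all knockdown libraries above the controls (19.2, 12.4 and 10.7 CPM in sh-NC and 26.5, 20.5 and 19.8 CPM in sh-IGF2BP3), with a log2 fold change of 0.66 (SE 0.254, adjusted p = 0.156, edgeR). CITED2, a transcriptional co-regulator that competes with HIF-1α for p300, gave 0.52 (SE 0.219, adjusted p = 0.183, edgeR). Nearly all of EGLN1 (99.9%) lies inside a second coding gene on the same strand, which held at most 3 counts per library.

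Of 30 further HIF targets outside glycolysis, 29 were tested by edgeR, which called 0 of them and 0 of all 16753 genes. The median log2 fold change of the 29 was 0.024 (edgeR). DESeq2 called 1 higher and 1 lower of 23 tested, where it called 4.29% of all genes higher and 1.05% lower. SLC16A3, the lactate exporter MCT4, ranged from 151.6 to 288.8 CPM in sh-NC and from 326.1 to 502.8 CPM in sh-IGF2BP3. Its groups were apart, with a log2 fold change of 1.00 (SE 0.243, adjusted p = 0.103, edgeR; DESeq2 adjusted p = 0.0142), and CSNK1D lies on the opposite strand over 51.2% of it. P4HA1, a subunit of collagen prolyl 4-hydroxylase, was measured at 53.8, 50.2 and 54.0 CPM in sh-NC and 30.5, 33.6 and 35.3 CPM in sh-IGF2BP3. Its groups were apart, with a log2 fold change of -0.67 (SE 0.18, adjusted p = 0.103, edgeR; DESeq2 adjusted p = 0.0288).

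The 18 glycolytic targets were all tested. By edgeR 0 passed the thresholds, as did 0 of all 16753 genes. DESeq2 called 1 of 18 higher (ALDOA), where it called 4.29% of all genes higher. In the edgeR fit 16 were higher and 2 lower in sh-IGF2BP3, with a median log2 fold change of 0.29 against -0.014 over all genes. The median was 0.21 with GC and length trends removed and 0.56 without sh-NC 1. At an unadjusted p under 0.05, 6 were higher and 1 was lower, beside 13.6% and 8.54% of all genes. With GC and length trends removed 1 was higher and 0 were lower, beside 1113 and 575 of 16236 genes. ALDOA, an aldolase, ranged from 5.00 to 7.90 CPM in sh-NC and from 8.52 to 21.4 CPM in sh-IGF2BP3, with a log2 fold change of 1.40 (SE 0.327, adjusted p = 0.103, edgeR; DESeq2 adjusted p = 0.00744). ALDOA lies 99.3% inside a further coding gene on the same strand (34 to 68 counts per library), and reads fitting both cannot be told apart. PFKL, the liver-type phosphofructokinase subunit, gave 0.61 (SE 0.194, adjusted p = 0.122, edgeR).

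Placed beside their paralogs, in families that were drawn up after the values were seen, several members were below at least 1 paralog in these cells. KDM3A (3.77 FPKM as the mean over 6 libraries) was below KDM3B (27.8) and JMJD1C (17.7), PFKFB4 (4.64) below PFKFB3 (16.3) but above PFKFB2 (3.82) and PFKFB1 (0.66), NDRG1 (5.81) below NDRG3 (16) but above NDRG2 (2.52) and NDRG4 (2.03), and BNIP3 (5.83) below BNIP3L (11.6). EGLN3 (0.644 FPKM) was below EGLN1 (3.34) and EGLN2 (1.31), and CA9 (0.23 FPKM) below CA12 (1.78). HIF1A (63.6 FPKM) had the highest mRNA level of the alpha subunits, above EPAS1 (10.5) and HIF3A (0.119). These orders rest on the gene lengths behind the FPKM, 12002 bases for NDRG1, and some turned in CPM, which is not divided by length. In mean CPM NDRG1 (74.4 in sh-NC and 64 in sh-IGF2BP3) was above NDRG3 (57.2 and 46.9). PFKFB4 (27 and 29.9) was below PFKFB2 (43.5 and 34.2). Of the paralogs of KDM3A, KDM3B had a log2 fold change of -0.044 (SE 0.177, adjusted p = 0.901, edgeR) and JMJD1C of -0.42 (SE 0.222, adjusted p = 0.28, edgeR). Whether KDM3A differed from them was not tested.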

How the data were processed

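Read counts and FPKM values per gene were deposited by the authors for 6 libraries (TruSeq kit, GRCh38 per the labels). The aligner, counter and strandedness are not given in the sources used here. The deposited counts were tested with edgeR 4.0.16 (R 4.3.3), with filterByExpr, TMM scaling and the quasi-likelihood F test, and p-values were adjusted by Benjamini-Hochberg over all 16753 genes. Calls required 1.5-fold at an adjusted p below 0.05, after the study's methods. The deposited FPKM values served for levels between genes and for limma 3.58.1 on log2(FPKM + 1) and log2(FPKM + 0.1). DESeq2 1.42.0, other scalings and filters, removal of GC and length trends (GC from GENCODE 29, splines with 5 degrees of freedom), a replicate block and leaving out each library were alternatives. The fits were tested on simulated data. Exact permutation tests on CPM were two-sided, and intervals cover counting error only. Genes named beside the 10 were, for each list, those past the thresholds or else the 2 with the smallest p, the genes overlapping a member, the nearest profile for 4 members (CA9 was too low to have one), and IGF2BP3. The profile search used genes of at least 1 CPM. The members and lists were chosen with earlier results of these data known.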

Additional observations from a re-analysis of the deposited data

How the results depend on the processing

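The count of 0 calls over all genes depended on the fit. It became 562 higher and 137 lower with DESeq2 (537 and 129 when genes needed 10 counts over the 6 libraries), 687 and 150 with no filter on low counts, 1 higher with relative log expression scaling, 1 higher with at least 10 counts in every library, 1 lower with limma on log2(FPKM + 1), and 0 to 1739 higher and 0 to 985 lower when a library was left out, with or without GC and length trends. The highest counts came without sh-NC 1. At an unadjusted p under 0.05 the edgeR fit held 2283 higher and 1431 lower genes. Among the 10 genes, 1 was called with DESeq2 (KDM3A), 1 with no filter (ADM) and 0 to 2 with a library left out. Among the 13 HIF subunits and regulators 0 to 1 was called with a library left out. Of the 30 other targets, 2 were called with DESeq2 under either filter, 1 with no filter and 0 to 6 with a library left out. Of the 18 glycolytic targets these counts were 1, 1 and 0 to 10. Over all genes DESeq2 called 4.29% higher and 1.05% lower. The highest count of each list came without sh-NC 1, where edgeR called 10% of all genes higher and 5.67% lower. The cause of this dependence on the fit was not tested.

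With a library left out, the median log2 fold change ran from -0.14 to 0.22 over the members, -0.073 to 0.32 over HIF subunits and regulators, -0.076 to 0.048 over the other targets and 0.065 to 0.56 over glycolytic targets. The median over HIF subunits and regulators was -0.034 with upper-quartile scaling, -0.033 on log2(FPKM + 1) with or without a filter, -0.058 on log2(FPKM + 0.1), and 0.16 with GC and length trends removed. ADM, NDRG1 and KDM3A kept their sign in every alternative run, and the other 6 tested members did not. HIF1A was 0.19 with GC and length trends removed and -0.27 to 0.37 with a library left out. VEGFA was -0.047 with upper-quartile scaling, -0.016 with at least 10 counts in every library, -0.041 on log2(FPKM + 1) with or without a filter, -0.046 on log2(FPKM + 0.1), -0.031 with GC and length trends removed, and -0.19 to 0.23 with a library left out. ANKRD37 was -0.0032 with upper-quartile scaling, -0.021 on log2(FPKM + 1) with no filter, and -0.15 to 0.54 with a library left out. PFKFB4 was -0.06 with GC and length trends removed and -0.15 to 0.27 with a library left out. BNIP3 ran from -0.065 to 0.28 and EGLN3 from -0.55 to 0.026 with a library left out.

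The study describes its control and knockdown cells as pairs, and the main fit was unpaired. Same-numbered deviations were correlated at -0.284, -0.1856 and -0.0433, so the replicate numbers showed no pairing. Such correlations cannot show that the cells were not paired. With the replicate block, 0 genes were called higher and 0 lower, KDM3A was -0.69, ADM 0.94 and ANKRD37 -0.01. With the block and GC and length trends removed, HIF1A was 0.20, VEGFA -0.00012, PFKFB4 -0.059 and the median over HIF subunits and regulators 0.15. No sample correlated best with its own number. Fits that removed GC and length trends together with a library or the block, and DESeq2 with the minimum of 10 counts, were chosen after seeing the data. CA9, with 41 counts in all, did not pass the edgeR filter (DESeq2 log2 fold change 0.95, SE 0.961, unadjusted p = 0.32).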

Other observations

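The receptors for the secreted members were low in the same cells. For VEGFA, FLT1 was at a mean of 0.00074 FPKM over the 6 libraries and KDR at 0.0512, and the co-receptors NRP1 and NRP2 were at 0.254 and 0.36 FPKM. For adrenomedullin, the receptor CALCRL was at a mean of 0.355 FPKM and its partner RAMP2 at 0.0252, while RAMP3 had 0 counts in every library. CALCRL was measured at 0.79, 4.38 and 5.16 CPM in sh-NC and at 2.00, 1.44 and 1.36 CPM in sh-IGF2BP3, so its lowest library was a control. Among other growth factors of the VEGF family, VEGFB was at a mean of 7.41 FPKM beside 6.2 FPKM for VEGFA, whose FPKM rests on a length of 14431 bases. Not divided by length, VEGFA was at means of 89.8 CPM in sh-NC and 90.2 CPM in sh-IGF2BP3, and VEGFB at 13 and 16.4 CPM. PGF was at 0.814 FPKM and VEGFC held 2 counts in all. These genes were chosen after the values were seen.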
